A study of Mus musculus with 6 samples.

Results

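AMPA receptors are the glutamate-gated channels that carry fast excitatory transmission, and 10 genes for their subunits were followed in cultured mouse cerebellar granule neurons after knockdown of the histone H3 lysine 27 demethylase Kdm6b. The members were chosen by gene symbol: the pore subunits Gria1, Gria2, Gria3 and Gria4, the transmembrane AMPA receptor regulatory proteins (TARPs) Cacng2, Cacng4, Cacng5, Cacng7 and Cacng8, and the cornichon Cnih2. All 10 are among the 23366 genes of the count table and all 10 passed the filter on low counts, which left 15731 genes. The neurons were purified on a Percoll gradient from cerebella of postnatal day 7 C57BL/6 mice, a litter at a time, and infected with lentivirus on day 1 in vitro. The 3 control libraries carried the empty pLKO.1 vector and the 3 knockdown libraries the same vector with a Kdm6b hairpin, of which the labels give 1 sequence. The labels say that BDNF was added to certain cultures without saying to which. The series describes the 3 libraries of each group as biological replicates without saying what was separate about them (litter, culture or infection). P-values therefore reflect the spread among these libraries, which may be partly technical.

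AMPA receptors are tetramers of GluA1 to GluA4, the products of Gria1 to Gria4. A receptor that holds edited GluA2 passes little calcium, because RNA editing replaces a glutamine by an arginine at one site of the pore. TARPs bind the assembled receptor, and several of them carry it to the surface, anchor it at synapses and slow its closing. Cornichons such as Cnih2 help receptors leave the endoplasmic reticulum and also change gating. In cerebellar granule neurons, stargazin, the product of Cacng2, is known to be needed for AMPA receptors at mossy fibre synapses.

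The pore stretch in which the subunits are so alike is shown because it contains the edited site of GluA2, which the counts of Gria2 cannot resolve. Each line is the coding strand of 39 bases from GENCODE M21 (build GRCm38), 5′ to 3′, and the codon at the edited site is in capitals.
Gria1: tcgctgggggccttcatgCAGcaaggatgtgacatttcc
Gria2: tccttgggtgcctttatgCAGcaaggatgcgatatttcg
Gria3: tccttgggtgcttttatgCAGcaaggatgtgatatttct
Gria4: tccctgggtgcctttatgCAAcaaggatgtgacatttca
The stretches lie at chr11:57243076-57243114 on the plus strand in exon 11 of 16 of Gria1, at chr3:80706893-80706931 on the minus strand in exon 11 of 16 of Gria2, at chrX:41610247-41610285 on the plus strand in exon 11 of 16 of Gria3, and at chr9:4464119-4464157 on the minus strand in exon 12 of 17 of Gria4. All of them encode glutamine at the capitals in the genome, and the codon is number 607 of 883 in Gria2. Gria2 and Gria3 shared 36 of the 39 bases, and Gria1 and Gria2 shared 32. The count table does not separate edited from unedited Gria2 RNA.

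The promoter of Cnih2 is shown because Cnih2 had the largest fitted rise of the 10 genes. RefSeq (GRCm38.p6) gives it at chr19:5098472-5098771 on the minus strand, 250 bases before to 50 after the start of the gene, with CG dinucleotides in capitals.
Cnih2: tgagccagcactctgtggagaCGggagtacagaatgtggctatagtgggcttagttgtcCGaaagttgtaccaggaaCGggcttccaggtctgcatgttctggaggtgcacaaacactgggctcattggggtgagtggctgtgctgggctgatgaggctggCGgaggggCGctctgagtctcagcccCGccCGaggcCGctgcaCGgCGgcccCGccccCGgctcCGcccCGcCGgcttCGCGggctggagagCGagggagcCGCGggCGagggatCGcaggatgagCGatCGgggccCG
It holds 25 CG dinucleotides, a number reached by 18.4% of the 32841 promoters of this length, whose median is 7. RefSeq promoters were matched for 7 of the 10 members, with 26 CG dinucleotides for Gria2, 17 for Gria4, 20 for Cacng2, 15 for Cacng7, 2 for Cacng8 and 17 and 5 for the 2 starts of Cacng5. The windows of Cacng8, Cacng2 and the second start of Cacng5 lie wholly inside the GENCODE spans of these genes. The Cacng8 window (chr7:3393792-3394091) does not cover the start of its span at 3390683, so its count may not be that of the promoter there. No histone or binding data were analysed here, so these windows are context only.

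Gene counts per library ran from 50326298 to 88214069, and counts of the members within a library from 312 (Cacng4) to 59024 (Gria2). Levels below are TMM-scaled CPM, gene counts relative to library size. Kdm6b, the targeted gene, was at 257, 146 and 170.5 CPM in control replicates 1 to 3 and at 88.8, 63.3 and 79.8 CPM in knockdown replicates 1 to 3, lower in all 3 pairs (log2 fold change −1.31, SE 0.25, edgeR adjusted p = 0.216; −1.28, SE 0.11, edgeR adjusted p = 0.0282 with the replicate block described next). Markers of granule neurons summed to 3476 to 4647 CPM across the controls and 3309 to 4439 CPM across the knockdowns over 10 genes. Those 10 did not move alike: Etv1 fell (log2 fold change −1.48, edgeR adjusted p = 0.0299 with the block) and was the 1 called, and Slc17a7, the vesicular glutamate transporter of mature granule neurons, did not overlap (299.8 to 735 CPM in controls, 181 to 228 in knockdowns) but did not pass (−1.11, edgeR adjusted p = 0.0562). Pax6 (0.82, edgeR adjusted p = 0.0510) and Reln (0.73, edgeR adjusted p = 0.101) had values in the other direction and did not pass. The cultures also held RNA of other cells: markers of pericytes and fibroblasts summed to 13255 to 26708 CPM across the controls and 4413 to 12132 CPM across the knockdowns (10 genes, 7 of them lower past the test with the block), and astrocyte and Bergmann glia markers to 1174 to 2952 and 666 to 2972 CPM (10 genes, 1 lower). The 6 Purkinje cell markers summed to 66.8 to 96.2 CPM in controls and 57.3 to 73.6 CPM in knockdowns, mostly from Itpr1 and Rora, with Pcp2 at 0 to 0.0224 CPM and Car8 called lower (1 of 4 tested). In such bulk libraries fewer cells of a type and less RNA per cell cannot be told apart.

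In the edgeR test with the replicate block Cnih2 was higher and Cacng2 lower in the knockdown, and no pore subunit passed. With no replicate term, the edgeR quasi-likelihood test called 0 of the 10 members (Benjamini-Hochberg adjustment over all genes at 0.05), where it called 1 gene of all (0.00636%), and 3 members and 1661 of all genes had an unadjusted p under 0.05. DESeq2 without the block called 1 member, Cnih2, and 522 of all genes. Libraries with the same replicate number departed together from their group means, so the number was also fitted as a block. With the block 2 of the 10 members passed, 1 higher and 1 lower, against 7.98% of all genes (2.58% higher and 5.4% lower). The members were chosen with earlier results of these data known, so these shares are a description and no test of an excess. DESeq2 with the block, added after the data were seen, called 5 members, the pore subunits Gria1 and Gria2 among them, and 3507 of all genes. Control and knockdown values did not overlap for 3 members, Cnih2 and Cacng8 (higher) and Cacng2 (lower), and for 16.7% of all genes. The median log2 fold change of the members was 0.08 without and 0.07 with the block, and that of all genes tested 0.02 in both fits. With the block the members' call count was 0 without replicate 1 or without replicate 2 and 2 without replicate 3 (Cnih2 and Cacng5). Of all genes, those fits called 0 without replicate 1, 53 without replicate 2 and 1272 without replicate 3.

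**Figure D1:**
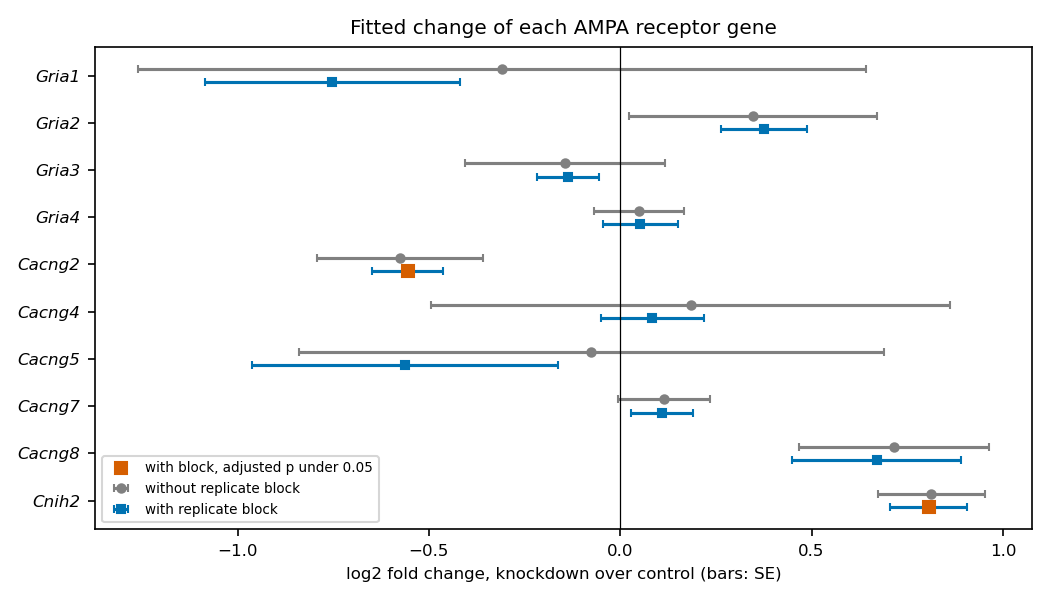
Log2 fold change (knockdown over control) and its standard error for each of the 10 genes, without (grey circles) and with (squares) the replicate block. Orange squares mark Cnih2 (0.81) and Cacng2 (−0.56), the 2 genes with an edgeR adjusted p under 0.05 in the fit with the block, and the bars of Gria1 and Cacng5 are the longest.

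Cnih2 rose 1.75-fold with the block. It stood at 55.9, 48.3 and 49.4 CPM in control replicates 1 to 3 and at 96.2, 98.2 and 75.4 CPM in knockdown replicates 1 to 3. Every knockdown library lay above every control library, and the rise was present in each of the 3 same-numbered pairs (log2 differences of 0.78, 1.02 and 0.61). The means were 51.2 ± 4.09 and 89.9 ± 12.6 CPM (SD, n = 3). The log2 fold change was 0.81 (SE 0.14, edgeR adjusted p = 0.216) without the block and 0.81 (SE 0.10, edgeR adjusted p = 0.0299) with it, and DESeq2 without a block called it as well (0.80, DESeq2 adjusted p = 0.000713). Cnih2 no longer passed the block fit when replicate 1 was left out (0.82, edgeR adjusted p = 0.105) or replicate 2 (0.68, edgeR adjusted p = 0.0559). The summed pericyte and fibroblast markers were lower in all 3 knockdown libraries than in any control, and the granule neuron markers held members with values in both directions, Etv1 called lower among them. The part of the cell mixture in the Cnih2 difference was not tested. Cnih2 lies at chr19:5092868-5098521 (GENCODE M21, GRCm38), and its exons share 14 bases with Yif1a on the opposite strand.

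RNA of Cacng2, the gene for stargazin, was lower in the knockdown and passed the edgeR test only with the block. Cacng2 was at 107.7, 66.5 and 74.1 CPM in control replicates 1 to 3 and at 65.3, 52.0 and 49.3 CPM in knockdown replicates 1 to 3. The groups did not overlap, although the highest knockdown value, 65.3 CPM, lay just under the lowest control value, 66.5 CPM. The means were 82.8 ± 21.9 and 55.5 ± 8.59 CPM (SD, n = 3), and Cacng2 was lower in all 3 pairs (log2 differences of −0.72, −0.36 and −0.59). The log2 fold change was −0.58 (SE 0.22, edgeR adjusted p = 0.452) without the block and −0.56 (SE 0.09, edgeR adjusted p = 0.0416) with it. With the block that call was lost when replicate 1 (edgeR adjusted p = 0.135), replicate 2 (0.0515) or replicate 3 (0.0762) was left out and with library totals alone as scaling (−0.48, edgeR adjusted p = 0.0510). Cacng2 lies at chr15:77991748-78120028 on the minus strand, and 5.86% of its exon bases are shared with the antisense gene A730060N03Rik. The library kit keeps strand, but how the counting used it is unknown here, so that part of the Cacng2 count is uncertain.

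The balance of Cnih2 and Cacng2 is given as their ratio within a library, which does not depend on how libraries are scaled. There were 0.519, 0.726 and 0.667 Cnih2 counts per Cacng2 count in control replicates 1 to 3 and 1.47, 1.89 and 1.53 in knockdown replicates 1 to 3. The log2 ratio was 1.36 higher in the knockdown. The pair was picked because its members differed in opposite directions, so the ratio is a description with no test and its lack of overlap follows from that choice.

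**Figure D2:**
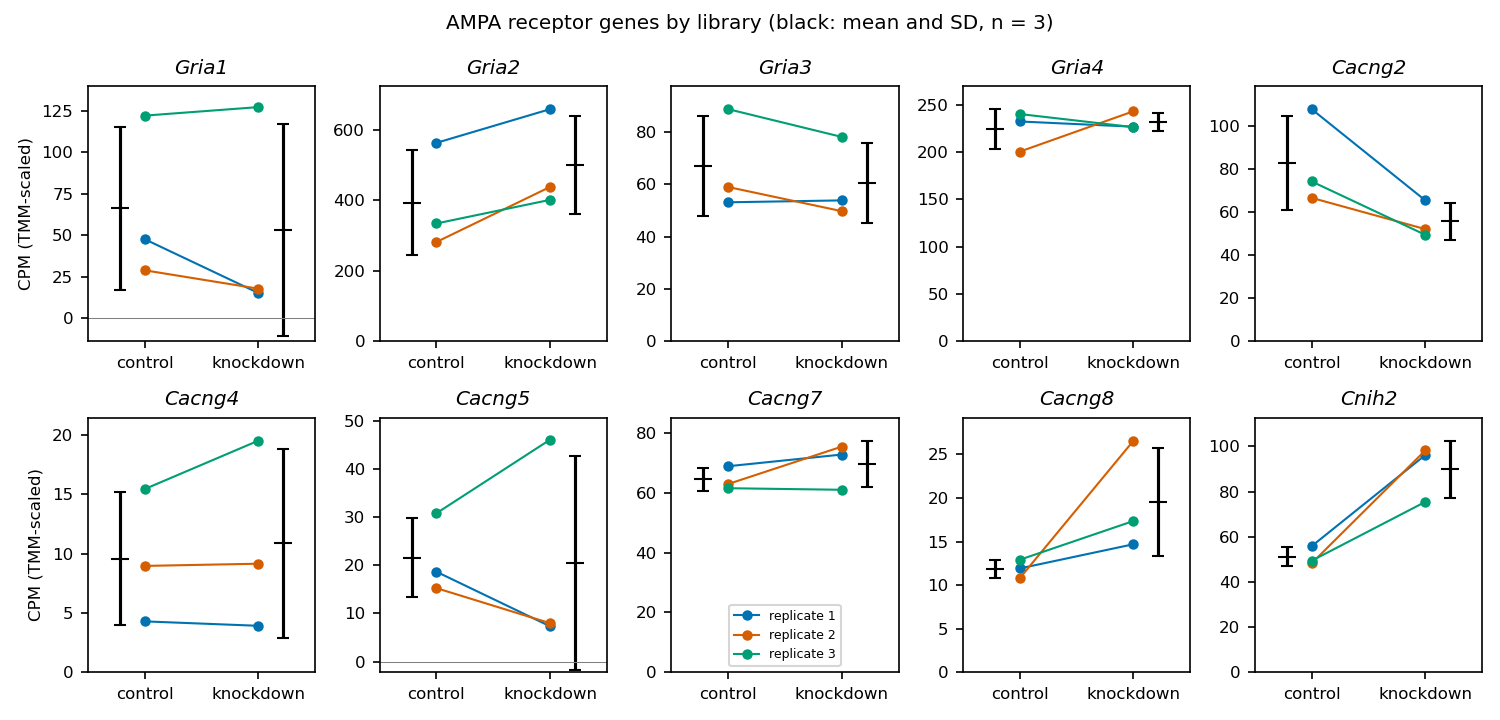
TMM-scaled CPM (linear axes) of the 10 genes by library, where lines connect same-numbered libraries and black marks give group means with SD (n = 3). Cnih2, Cacng8 and Gria2 were higher and Cacng2 lower in all 3 pairs, whereas Gria1, Gria3, Cacng4 and Cacng5 were highest in replicate 3 of both groups.

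The other TARPs divided by how far they varied between replicates. Cacng8, a TARP best known from the hippocampus, was at 11.9, 10.8 and 12.9 CPM in control replicates 1 to 3 and at 14.7, 26.6 and 17.4 CPM in knockdown replicates 1 to 3. The groups did not overlap and replicate 2 had the largest difference, but the gene did not pass (log2 fold change 0.72, SE 0.25, edgeR adjusted p = 0.414 without the block; 0.67, SE 0.22, edgeR adjusted p = 0.112 with it). DESeq2 with the block, an alternative added after the data were seen, called Cacng8 (0.65, DESeq2 adjusted p = 0.0292). Its exons at chr7:3390683-3415648 share 91 bases with a small RNA model, Gm23450, on the same strand.

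Cacng7, a type II TARP found in granule neurons, hardly varied. It was at 68.8, 62.9 and 61.5 CPM in control replicates 1 to 3 and at 72.7, 75.4 and 60.95 CPM in knockdown replicates 1 to 3, so the groups overlapped (log2 fold change 0.11, SE 0.12, edgeR adjusted p = 0.761 without and 0.387 with the block). Cacng7 lies at chr7:3332955-3368221, next to Cacng8 on the same strand.

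Cacng5, the other type II TARP, and Cacng4 were highest in replicate 3 of both groups. Cacng5 was at 18.6, 15.2 and 30.8 CPM in control replicates 1 to 3 and at 7.31, 7.96 and 46.0 CPM in knockdown replicates 1 to 3. Knockdown replicates 1 and 2 were below all controls and knockdown replicate 3 above them all, and the difference did not pass (log2 fold change −0.08, SE 0.76, edgeR adjusted p = 0.979 without the block; −0.56, SE 0.40, edgeR adjusted p = 0.367 with it). When replicate 3 was left out of the fit with the block, Cacng5 was called lower (log2 fold change −1.15, edgeR adjusted p = 0.0333). Cacng4 was the lowest member, at 4.30, 8.97 and 15.4 CPM in control replicates 1 to 3 and at 3.92, 9.15 and 19.5 CPM in knockdown replicates 1 to 3. Its order over the replicates was alike in both groups (log2 fold change 0.18, SE 0.68, edgeR adjusted p = 0.938 without and 0.687 with the block). Cacng4 (chr11:107732357-107794557) and Cacng5 (chr11:107874605-107915055) are neighbours on the minus strand of chromosome 11.

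Among the pore subunits Gria2 had the highest CPM in every library. It was at 564, 282 and 334 CPM in control replicates 1 to 3 and at 659.9, 438 and 402 CPM in knockdown replicates 1 to 3. The knockdown value was higher in each of the 3 pairs (log2 differences of 0.23, 0.64 and 0.26), yet the groups overlapped, since replicate 1 was high in both. The means were 393 ± 150.1 and 500.05 ± 139.7 CPM (SD, n = 3). The log2 fold change of 0.35 (SE 0.32, edgeR adjusted p = 0.727) without the block and 0.38 (SE 0.11, edgeR adjusted p = 0.0935) with it did not pass, and DESeq2 with the block called it (0.36, DESeq2 adjusted p = 0.0342). Gria2 lies at chr3:80681450-80802835 on the minus strand.

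Gria4, which granule neurons and Bergmann glia both express, was nearly level at 233, 201 and 240.5 CPM in control replicates 1 to 3 and 227, 243 and 227 CPM in knockdown replicates 1 to 3. Its means of 225 ± 21.1 and 232 ± 9.60 CPM (SD, n = 3) differed by less than the spread between libraries (log2 fold change 0.05, SE 0.12, edgeR adjusted p = 0.903 without and 0.730 with the block). Gria3, on the X chromosome (chrX:41400854-41678601), was at 53.1, 58.96 and 88.8 CPM in control replicates 1 to 3 and 53.8, 49.7 and 78.1 CPM in knockdown replicates 1 to 3. Both groups were highest in replicate 3 and overlapped (log2 fold change −0.14, SE 0.26, edgeR adjusted p = 0.867 without and 0.294 with the block). Gria4 lies at chr9:4417896-4796234.

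Gria1 was the most uneven member. It was at 47.7, 28.9 and 122 CPM in control replicates 1 to 3 and at 15.2, 17.8 and 127 CPM in knockdown replicates 1 to 3. Replicate 3 was far above the others in both groups, and the log2 difference was −1.64 in pair 1, −0.70 in pair 2 and 0.06 in pair 3. The log2 fold change was −0.31 (SE 0.95, edgeR adjusted p = 0.924) without the block and −0.75 (SE 0.33, edgeR adjusted p = 0.185) with it, and DESeq2 with the block called it lower (−0.77, DESeq2 adjusted p = 0.0336). Without the block the fitted value was above 0 once control replicate 3 (0.47) or either of knockdown replicates 1 (0.13) and 2 (0.09) was removed, and without knockdown replicate 3 the log2 fold change was −2.00 (edgeR adjusted p = 0.309). Gria1 lies at chr11:57011387-57330244 on the plus strand.

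Summed markers of glia and of several other cell types shared with Gria1 and Cacng5 a high replicate 3 within each group and low knockdown replicates 1 and 2. Bergmann glia are known for AMPA receptors of GluA1 and GluA4 with little GluA2, and Cacng5 is known from these cells too. The 10 astrocyte and Bergmann glia markers summed to 1174, 1467 and 2952 CPM in control replicates 1 to 3 and to 666, 837 and 2972 CPM in knockdown replicates 1 to 3. Replicate 3 was the highest library of both groups for this sum, as for Gria1 and Cacng5, and knockdown replicates 1 and 2 were the lowest. Gria4 did not have this order. It was highest in knockdown replicate 2 (243 CPM) and lowest in control replicate 2 (201 CPM). Each of the 10 markers was highest in replicate 3 within its group. For Aqp4, Slc1a3, S100b and Gdf10, however, a control library lay below knockdown replicate 1 or 2. The glial glutamate transporter Slc1a3 was at 231, 135 and 324 CPM across the controls and 152, 113 and 469.8 CPM across the knockdowns, and the astrocyte enzyme Aldh1l1 at 54.3, 44.7 and 116 and at 38.6, 38.8 and 180.3 CPM. Of the 10 markers only Gja1 passed the test with the block, and none was at 0 in any library. The order was not particular to glia: the summed markers of endothelial cells, pericytes and fibroblasts, microglia and Purkinje cells were likewise highest in replicate 3 of both groups and lowest in knockdown replicates 1 and 2. The endothelial sum, for example, was 78.7, 101.7 and 154 CPM across the controls and 62.7, 75.5 and 172 CPM across the knockdowns. Not every gene of these lists had that order. Cdh5 was the largest part of the endothelial sum in every library. Pecam1 was highest in replicate 1 of both groups (8.51, 0.340 and 1.75 CPM across controls, 9.69, 0.464 and 3.48 CPM across knockdowns). Dcn of the pericyte and fibroblast list was also highest in replicate 1 of both groups. The microglial C1qa was highest in control replicate 1 (23.4 CPM), and Rora of the Purkinje cell list was lowest in knockdown replicate 3 (20.1 CPM). Oligodendrocyte lineage markers had another order, at 1288, 257 and 1202 CPM across the controls and 972, 176 and 905 CPM across the knockdowns, as had those of interneurons, granule neurons and granule precursors. Gria1 and Cacng5 were lower in control replicate 2 (28.9 and 15.2 CPM) than in control replicate 1 (47.7 and 18.6 CPM). So was the microglial sum, but the glial, endothelial, pericyte and fibroblast, and Purkinje cell sums were higher there. In knockdown replicate 3 Gria1, Cacng5 and the glial and endothelial sums lay above all controls. The microglial and Purkinje cell sums lay within the control range and the pericyte and fibroblast sum below it. The part of RNA from any of these cells in the Gria1 and Cacng5 values was not tested.

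**Figure D3:**
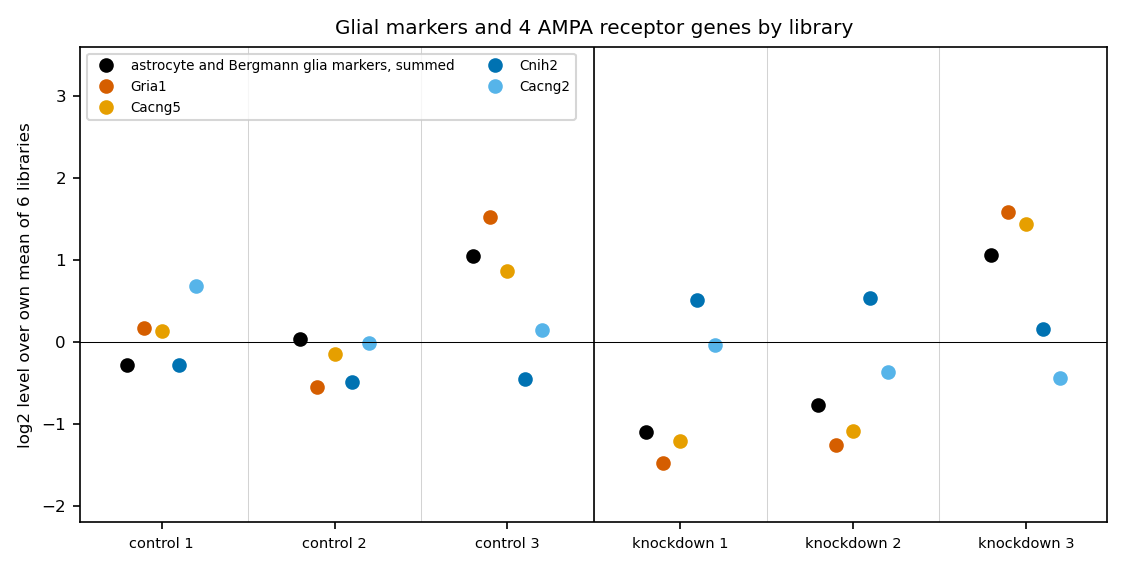
Log2 level of the summed astrocyte and Bergmann glia markers (black) and of Gria1, Cacng5, Cnih2 and Cacng2 in each library, relative to each one's geometric mean over the 6 libraries. The glial sum, Gria1 and Cacng5 are highest in replicate 3 of both groups and lowest in knockdown replicates 1 and 2, while Cnih2 is higher in every knockdown library than in any control.

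The make-up of the pore subunits was compared as each gene's share of the summed Gria1 to Gria4 counts per kb of exon, a measure within a library. Gria2 made up 41.97%, 29.8% and 24.2% in control replicates 1 to 3 and 49.1%, 37.7% and 28.5% in knockdown replicates 1 to 3. It was higher in the knockdown in each of the 3 pairs, by 7.13, 7.86 and 4.26 percentage points, but the groups overlapped (32.0% ± 9.08 and 38.4% ± 10.3, SD, n = 3; exact two-sided permutation p = 0.6, adjusted over 4 subunits 0.6). Gria4 held the largest share in 5 of the 6 libraries, at 42.7%, 52.4% and 42.9% in controls and 41.7%, 51.6% and 39.6% in knockdowns, with Gria2 above it in knockdown replicate 1. Gria1 ran from 2.92% in knockdown replicate 1 to 23.2% in knockdown replicate 3, and Gria3 from 6.23% to 10.1%. None of the 4 shares passed (exact permutation p from 0.4 to 0.6, each 0.6 after adjustment), and at 3 against 3 no p below 0.1 is possible. Dividing by the longest transcript instead put the mean Gria2 share at 36.2% in controls and 42.9% in knockdowns, and that of Gria4 at 40.3% and 38.4%.

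The same measure for the TARPs, with Cacng3 added, was computed after the data were seen. Cacng7 held the largest share in every library, from 40.6% to 55.1%. Cacng2 made up 31.8%, 22.2% and 23.0% in control replicates 1 to 3 and 21.9%, 16.0% and 14.6% in knockdown replicates 1 to 3, without overlap (exact permutation p = 0.1, adjusted over 6 genes 0.3). Cacng8 made up 8.26%, 8.51% and 9.43% in controls and 11.6%, 19.2% and 12.0% in knockdowns, again without overlap (exact permutation p = 0.1, adjusted 0.3). For plain counts without a length the Cacng2 shares overlapped (exact permutation p = 0.3).

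**Figure D4:**
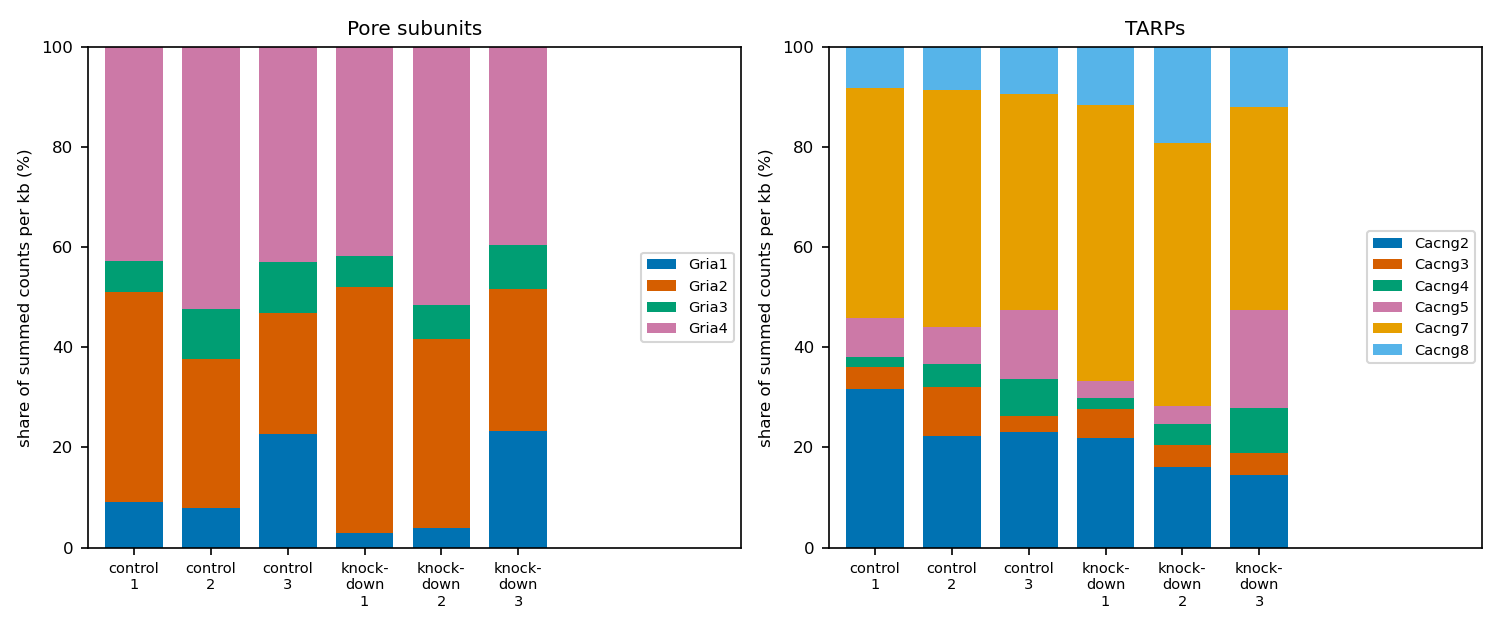
Share of each gene in the summed counts per kb of exon (stacked bars, percent) of the 4 pore subunits (left) and 6 TARPs (right) in each library. Gria2 takes a larger share in each knockdown library than in the control of the same number, Cacng2 a smaller one and Cacng8 a larger one, while Gria1 is largest in replicate 3 of both groups.

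Levels of different genes were ordered by CPM per kb of exon. In controls the order of the means was Cnih2 (37.4 ± 2.98 CPM per kb, SD, n = 3), Gria4 (35.6 ± 3.34), Cacng7 (26.4 ± 1.60), Gria2 (25.3 ± 9.66), Cacng2 (15.02 ± 3.98), Gria1 (10.96 ± 8.16), Gria3 (6.79 ± 1.94), Cacng5 (5.62 ± 2.13), Cacng8 (5.07 ± 0.446) and Cacng4 (2.68 ± 1.56). Neighbours in that order overlapped in their control values except Gria4 over Cacng7 and Cacng8 over Cacng4. In knockdowns Cnih2 led at 65.7 ± 9.20 CPM per kb (SD, n = 3) and no longer overlapped the next gene, Gria4, at 36.9 ± 1.52 CPM per kb. The place of Gria2 depends on the length used: its merged exons span 15548 bases and its longest transcript 10371, and on the latter it stood at 37.9 ± 14.5 CPM per kb in controls and 48.2 ± 13.5 in knockdowns, while the order then began with Gria4 in controls and Cnih2 in knockdowns, where Cnih2 (56.2 to 73.1 CPM per kb) overlapped Gria2 (38.7 to 63.6) and so no longer stood apart.

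The genes whose levels most resembled those of Cnih2 and Cacng2 over the 6 libraries were found by the root mean square difference of centred log2 CPM among 11780 genes averaging 5 CPM or more. For Cnih2 they were Rcan1, a regulator of calcineurin (root mean square difference 0.033), the kinase Prkx (0.050) and the ubiquitin hydrolase Uchl1 (0.070). Rcan1 was at 29.2, 24.8 and 26.4 CPM across the controls and 50.0, 53.2 and 38.1 CPM across the knockdowns. For Cacng2 they were the deoxycytidine kinase gene Dck (0.079), the N-type calcium channel gene Cacna1b (0.086) and Mybpc3 (0.095). Cacna1b was at 131, 82.0 and 90.6 CPM across the controls and 94.2, 65.3 and 60.5 CPM across the knockdowns. All 3, like Cacng2, were highest in control replicate 1. Cnih2 and Cacng2 were picked by their p with the block, so a group difference in the genes nearest to them follows from that choice.

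Of 40 further genes that assemble, move, cluster, anchor or edit AMPA receptors, 39 were in the count table and 38 were tested. Without the block 0 passed and 7 had an unadjusted p under 0.05 (edgeR), as had 1661 of all 15731 genes tested. With the block 3 rose and 5 fell, 21.1% of those tested against 7.98% of all genes, with a median log2 fold change of 0.04 against 0.02 over all genes. The list was chosen with earlier results of these data known, so these shares are a description and no test of an excess. Leaving out replicate 1 or replicate 2 took the block count of these genes to 0, and leaving out replicate 3 to 6 (1 higher, 5 lower). Of all genes, those fits called 0 without replicate 1, 53 without replicate 2 and 1272 without replicate 3. DESeq2 without the block called 3 of these genes and 522 of all genes.

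The genes that fell include a pair of pentraxins, proteins that gather AMPA receptors from outside the cell. The neuronal pentraxin receptor gene Nptxr was at 47.9, 98.5 and 37.6 CPM in control replicates 1 to 3 and at 20.0, 47.6 and 19.9 CPM in knockdown replicates 1 to 3. Its groups overlapped because replicate 2 was high in both, and it was lower in every pair (log2 fold change −1.08, SE 0.09, edgeR adjusted p = 0.0282 with the block; 0.508 without). Nptx1, which encodes a secreted pentraxin, fell from 434 ± 173.5 to 262 ± 159 CPM (SD, n = 3; −0.82, SE 0.16, edgeR adjusted p = 0.0488 with the block), while Nptx2 stood at 2.46 ± 1.02 and 2.30 ± 0.602 CPM (SD, n = 3) and did not pass. The scaffold gene Dlg1, whose product SAP97 binds GluA1, was at 73.5, 117.6 and 112 CPM across the controls and 32.6, 62.9 and 68.4 CPM across the knockdowns. Those groups did not overlap (log2 fold change −0.93, SE 0.11, edgeR adjusted p = 0.0282 with the block). Syndig1 (−0.81) and Frrs1l (−0.68) also fell with the block; they encode a synaptic AMPA receptor partner and a protein needed to build the receptor in the endoplasmic reticulum, and both lie outside the rule for named genes and were added after their values were seen.

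Shisa7, Prrt1 and Porcn rose with the block. Shisa7, which encodes an auxiliary protein of the CKAMP family, averaged 25.3 ± 11.1 CPM in controls and 43.4 ± 9.53 in knockdowns (SD, n = 3; log2 fold change 0.85, SE 0.15, edgeR adjusted p = 0.0447). Prrt1, or SynDIG4, a further receptor partner, was at 62.8, 44.6 and 43.98 CPM across the controls and 82.4, 76.2 and 66.9 CPM across the knockdowns, without overlap (0.59, SE 0.10, edgeR adjusted p = 0.0405). Porcn, an acyltransferase of the endoplasmic reticulum that also lipidates Wnt proteins, had the smallest of the 3 rises (0.38, SE 0.07, edgeR adjusted p = 0.0441). Among genes that did not pass, named after their values were seen, were Adarb1, the enzyme that edits the Gria2 site in capitals above (315 ± 56.3 and 371 ± 87.4 CPM, SD, n = 3; 0.22, SE 0.08, edgeR adjusted p = 0.138 with the block), the remaining TARP Cacng3 (9.19 ± 4.98 and 7.84 ± 0.801 CPM, SD, n = 3) and the scaffold Dlg4 (0.39, SE 0.10, edgeR adjusted p = 0.0727). The other editing gene of the list, Adar, had a value in the opposite direction to Adarb1 and did not pass either (−0.54, SE 0.11, edgeR adjusted p = 0.0523 with the block).

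**Figure D5:**
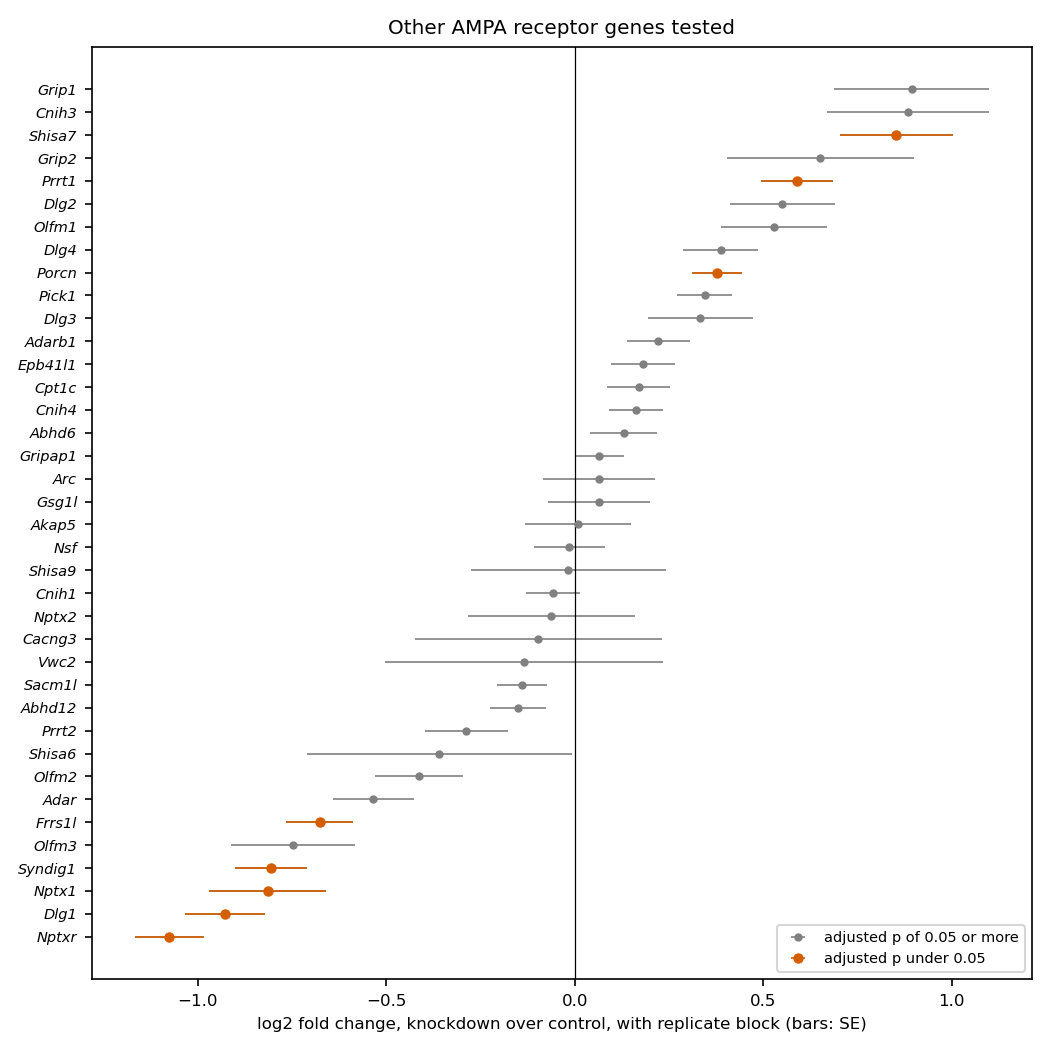
Log2 fold change (knockdown over control) and its standard error in the fit with the replicate block for the 38 further AMPA receptor genes tested, sorted by size. Orange points are the 8 genes with an edgeR adjusted p under 0.05, from Nptxr (−1.08) to Shisa7 (0.85).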

How the data were processed

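Stranded mRNA libraries were read as 50-base single ends (labels' protocols). The deposited table holds raw read counts per gene for 6 libraries; the submitters' processing notes name Trimmomatic, TopHat2, HTSeq, edgeR and DESeq2 with build mm9, and tool versions, annotation and strand setting: not given in the sources used here. Tallies that name no gene (12.1% to 15.0% of all counts outside genes, 0.406% to 0.509% ambiguous, 16.0% to 19.3% not unique) were left out. Columns were matched to samples by description.

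Counts were fitted with edgeR 4.0.16 in R 4.3.3 (filterByExpr with minimum count 10 and total 15, TMM, quasi-likelihood F test, Benjamini-Hochberg over all genes at 0.05), without and with the replicate number as a block. Standard errors were taken as |log2 fold change| divided by the root of F. Same-numbered libraries' deviations from their group means correlated at 0.772, 0.709 and 0.701 for numbers 1, 2 and 3; the pairing comes from the data, not the labels. Libraries of a group differed by more than counting noise (chi-square over its degrees of freedom 174 to 381). The alternatives changed the scaling (library totals, RLE, upper quartile), the filter (none, or 5 CPM on average) or the tool (limma-voom, limma 3.58.1; DESeq2 1.42.0), or left out libraries. Exon lengths, coordinates and overlaps are from GENCODE M21 (GRCm38), matched by name only; Cnih1 and Epb41l1 were matched through older symbols.

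The members and lists were chosen with earlier results of these data known. Named are all members, Kdm6b, the 3 highest and 3 lowest called further genes, and the 3 genes closest in level pattern (pseudocount 0.5) to the 2 members with the smallest p with the block. Others were picked after their values were seen.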

Additional observations from a re-analysis of the deposited data

How the results depend on the processing

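Over 23 fits Cnih2 (log2 fold change 0.68 to 0.93), Cacng8 (0.35 to 0.88), Gria2 (0.09 to 0.70) and Cacng7 (0.02 to 0.20) stayed above 0 and Cacng2 (−0.71 to −0.34) below 0. Cnih2 passed in 7 of 9 fits with the replicate block and in 1 of 14 without it, and Cacng2 in 5 of 9 and 0 of 14. Without the block the count of members called was 1 with DESeq2 and 0 in the other fits, that of the further AMPA receptor genes 3 with DESeq2 and 0 otherwise, and that of all genes 522 with DESeq2, 0 with library totals alone, 0 in every fit that left out 1 library and 1 otherwise. With the replicate block the counts of members, further genes and all genes were 2, 8 and 1256; 2, 9 and 1342 with RLE factors; 2, 9 and 1350 with upper-quartile factors; 2, 10 and 1598 when unfiltered; 1, 12 and 1276 when scaled by library totals alone; and 5, 16 and 3507 with DESeq2. Leaving out 1 replicate number gave 0 to 2, 0 to 6 and 0 to 1272 (53 for all genes without replicate 2). With library totals alone the calls of the block fit on all genes went from 406 higher and 850 lower to 723 higher and 553 lower, and those on further genes from 3 and 5 to 7 and 5. Cacng5 turned to 0.038 with library totals alone. Leaving out 1 library gave ranges of −2.00 to 0.47 for Gria1, −0.37 to 0.10 for Gria3, −0.026 to 0.091 for Gria4, −0.55 to 0.70 for Cacng4 and −1.50 to 0.33 for Cacng5, and with the block −0.077 to 0.11 for Gria4 and −0.056 to 0.19 for Cacng4. The cause was not tested. The difference in Gria2 share was 6.42 percentage points (6.76 by longest transcript, 6.97 without length, 1.08 to 11.4 with 1 library left out).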
